A study of Caenorhabditis elegans with 2 samples.

Results

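The piRNA gene clusters of chromosome IV of Caenorhabditis elegans were examined for ChIP-seq peaks of the protein Y48G9A.11, at every candidate peak whose summit lay at 4.5 to 7 Mb (the left cluster) or at 13.5 to 17.2 Mb (the right cluster). There were 3162 such candidates, of 93476 in the ranked list that the authors made from both replicates. A candidate was called bound where the authors' pooled thresholded list held the same peak, and 112 of the 3162 were bound, 46 in the left and 66 in the right cluster. The data are chromatin immunoprecipitation and sequencing (ChIP-seq) of whole L4 larvae of strain RW12291, collected at 47.5 hours after synchronisation by starvation as L1 larvae. These animals carry an insertion made by CRISPR that adds TY1, EGFP and 3xFLAG tags to Y48G9A.11, and an antibody against GFP recovered the fusion protein. All animals belonged to 1 group of 2 biological replicates, and no untagged sample was among them (a control experiment that the labels name was not analysed here), so binding by the protein and general capture of open or highly transcribed chromatin cannot be told apart at any place named here. Whole animals were used, so a signal could not be assigned to the germline or to any other tissue.

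In C. elegans, piRNAs, also called 21U-RNAs, are small RNAs of the germline that load onto the Argonaute protein PRG-1 and recognise foreign and unwanted transcripts. Each piRNA gene is a separate small transcription unit with its own start, and most such genes lie packed in broad clusters on chromosome IV, between and within protein-coding genes. Many of them have an upstream sequence motif, and a complex that holds SNPC-4, PRDE-1, TOFU-4 and TOFU-5 is known to bind upstream of their starts. SNPC-4 belongs to a family of proteins that also serves small nuclear RNA genes.

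The annotation bore out the name of the regions. The clusters held 14204 of the 14714 annotated piRNA genes of chromosome IV, or 96.5%, and 2291 piRNA genes per Mb against 45.2 per Mb on the rest of the chromosome. The core of the upstream motif, CTGTTTCA, was sought on the strand of the gene within 60 to 25 bases upstream. It was found in 4931 of the 14204 piRNA genes of the clusters, or 34.7%. On the rest of the chromosome 161 of 510 piRNA genes had it, or 31.6% (27.6% to 35.8%), so it did not set the clusters apart. Among protein-coding genes it was in 5 of the 3281 of chromosome IV, or 0.152%, and in 3 of the 941 of the clusters, or 0.319%. At piRNA genes of the clusters the motif most often started 46 bases upstream, in 1680 genes. The sequences below are from RefSeq on build WBcel235, whose coordinates are those of ce11, and run 5′ to 3′ from 60 bases upstream to the end of the 21-base piRNA. The first pair are the piRNA genes whose 5′ ends lay nearest to a bound summit, and the other pair are neighbours of bound summits that have the motif, shown in capitals.
21ur-10061 (chrIV:5964031-5964111, minus strand): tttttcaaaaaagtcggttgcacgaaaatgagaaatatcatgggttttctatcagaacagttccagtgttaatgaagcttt
21ur-3398 (chrIV:13601579-13601659, plus strand): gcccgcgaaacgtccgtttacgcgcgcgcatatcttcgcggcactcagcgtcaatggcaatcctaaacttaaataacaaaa
21ur-7377 (chrIV:5265097-5265177, minus strand): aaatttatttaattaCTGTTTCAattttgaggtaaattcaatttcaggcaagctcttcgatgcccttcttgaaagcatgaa
21ur-3457 (chrIV:16383213-16383293, minus strand): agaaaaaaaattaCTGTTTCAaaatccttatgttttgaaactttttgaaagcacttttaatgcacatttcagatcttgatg
The letters of the motif were not found in the stretches of 21ur-10061 and 21ur-3398. The bound summits beside these 4 genes lay at 13, 83, 117 and 187 bp from the 5′ end.

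Bound places were not scarcer in the clusters as a share of candidates, but both kinds of place were thinner on the ground there. In the clusters 3.54% of candidates were bound (exact 95% interval 2.93% to 4.25%), against 316 of 10889, or 2.90% (2.59% to 3.23%), on the rest of chromosome IV, 2.25% on the other chromosomes and 2.37% over all candidates. The intervals of the first and second overlap, and the ratio of these shares was 1.22 (0.988 to 1.51). The interval of the ratio excluded 1 under some alternatives, for example with the authors' conservative list (1.33, 1.07 to 1.63), and included it under others, for example without summits at tRNA genes (1.12, 0.892 to 1.40). The left cluster had 2.98% bound (2.19% to 3.96%) and the right 4.07% (3.16% to 5.15%), which also overlap. Per Mb of sequence the order was the opposite: the clusters held 510.0 candidates and 18.1 bound places per Mb, and the rest of the chromosome held 964 and 28.0. All intervals here are exact (Clopper-Pearson) except that of the ratio, which is an approximate interval on the log scale; they cover counting error only and treat peaks as independent. Both replicates had the higher share in the clusters, and 2 samples are too few for an exact test over samples to pass any usual threshold, so none was run.

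Each replicate alone gave the same order. In replicate 1, 81 of 3239 cluster candidates were in its own thresholded list, or 2.50% (1.99% to 3.10%), against 1.84% (1.59% to 2.12%) on the rest of chromosome IV and 1.55% over all its candidates. In replicate 2 these values were 70 of 3321, or 2.11% (1.65% to 2.66%), against 1.62% (1.38% to 1.88%) and 1.32%.

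**Figure D1:**
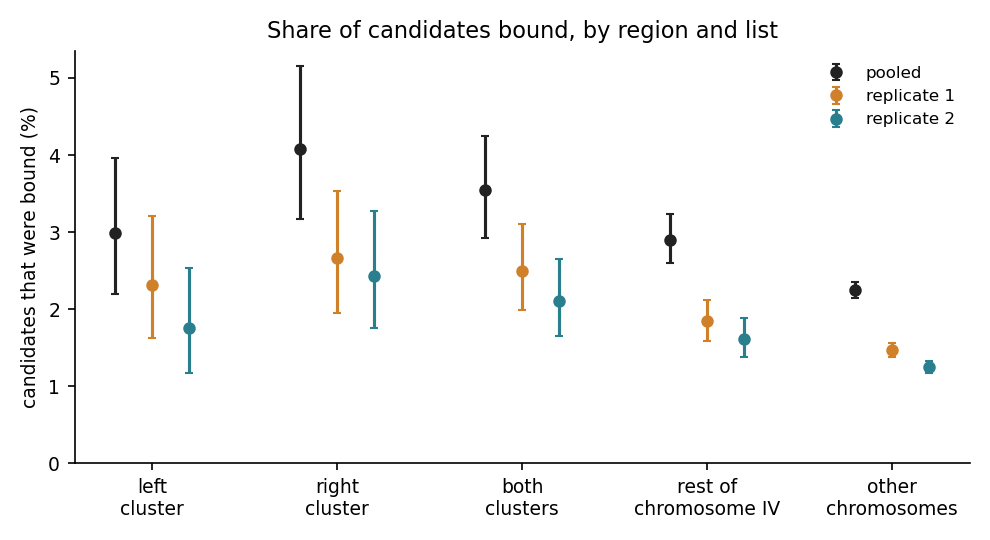
Share of candidates that were bound, in percent, by region, for the authors' pooled lists and for each replicate's own lists; bars are exact 95% intervals of counting error. The pooled share was 3.54% in both clusters together and 2.90% on the rest of chromosome IV, with overlapping intervals, and each replicate's share was lower than the pooled one in every region.

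Few bound summits lay at piRNA 5′ ends, although such ends were dense. Of the bases of the clusters, 29.8% were within 100 bp of a piRNA 5′ end, but only 282 of the 3162 candidates, or 8.92% (7.95% to 9.97%), and 2 of the 112 bound places, or 1.79% (0.217% to 6.30%), had the summit there. Of candidates that were not bound, 9.18% lay within that distance (8.18% to 10.3%). The density of candidates was 153 per Mb within 100 bp of a piRNA 5′ end, 304 per Mb at 101 to 300 bp, 986 per Mb at 2001 to 5000 bp and 1348 per Mb at 5001 to 20000 bp. That of bound places was 1.08, 9.45, 51.4 and 38.1 per Mb in the same steps. In neither replicate's own thresholded list did a summit within the clusters lie within 100 bp of a piRNA 5′ end (0 of 81, which allows up to 4.45%, and 0 of 70, which allows up to 5.13%). The median bound summit was 2089.5 bp from the nearest piRNA 5′ end and the median candidate that was not bound 2421 bp, while the median base of the clusters was 249 bp away.

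**Figure D2:**
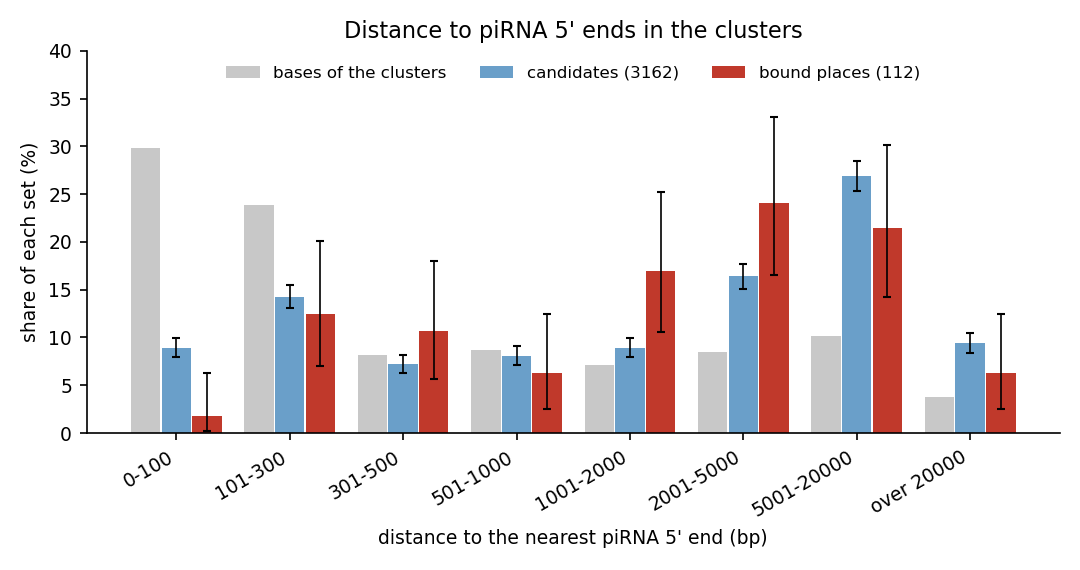
Share of cluster bases (grey), of all 3162 candidates (blue) and of the 112 bound places (red) at each distance, in bp, from the nearest annotated piRNA 5′ end; bars on the blue and red columns are exact 95% intervals. Within 100 bp lie 29.8% of the bases, 8.92% of the candidates and 1.79% of the bound places, and beyond 1000 bp the shares of candidates and bound places exceed that of bases.

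Base composition moved with this distance. In the 101 bp around the point measured, the median G+C content was 27.7% at the piRNA 5′ ends, 31.7% over all bases of the clusters, 40.6% at candidates that were not bound and 45.5% at bound places. The bound places of the rest of chromosome IV also had a median of 45.5%. Within each band of G+C content, candidates were still sparser near piRNA 5′ ends: 201 against 466 per Mb where G+C was 30% to 35%, and 485 against 1042 per Mb where it was 40% to 45%. Near piRNA 5′ ends only 2 bound places could be compared, 1 of them where G+C was 30% to 35% (2.76 against 11.0 per Mb) and 1 where it was 40% to 45% (19.4 against 38.0 per Mb). How far G+C content, which can also change how well fragments are sequenced, or reads that fit several places set these densities was not tested.

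**Figure D3:**
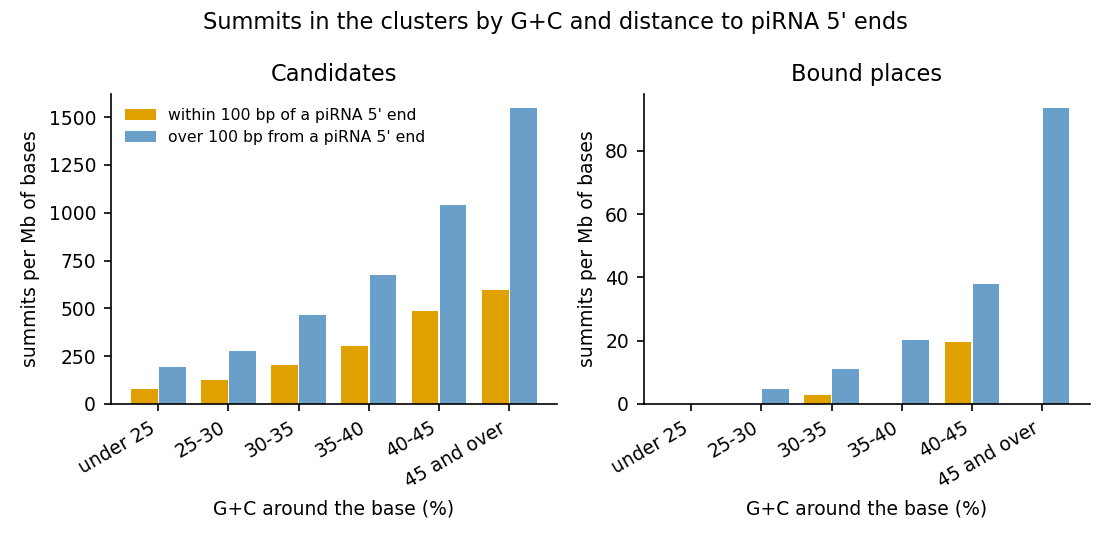
Candidates (left) and bound places (right) per Mb of bases in the clusters, by the G+C percentage of the 101 bp around each base, within 100 bp of a piRNA 5′ end (yellow) and farther away (blue). Candidates rise with G+C in both groups and are sparser within 100 bp in every band, for example 201 against 466 per Mb at 30% to 35%.

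A wider window gave more contacts with piRNA genes, but these genes shared places. A 5′ end window here runs from 1000 bp upstream to 200 bp downstream of the annotated 5′ end. Of the 112 bound summits, 30 lay in the window of at least 1 piRNA gene, or 26.8% (18.9% to 36.0%), against 32.6% of candidates that were not bound (30.9% to 34.3%) and 64.4% of the bases of the clusters. Only 99 of the 14204 piRNA genes had a bound summit in the window, or 0.697% (0.567% to 0.848%). On the rest of chromosome IV 5 of 510 did, or 0.980% (0.319% to 2.27%). The share was 0.781% over all piRNA genes of the genome, most of which lie in the clusters. These 99 genes shared the 30 summits, with up to 10 genes at 1 summit. Among genes with the motif 31 of 4931, or 0.629%, had a bound summit in the window, and among those without it 68 of 9273, or 0.733%, with overlapping intervals (0.428% to 0.891% and 0.570% to 0.929%). Relative to the nearest piRNA 5′ end, 24 bound summits lay up to 500 bp downstream and 4 up to 500 bp upstream, while for candidates that were not bound the counts were 488 and 445. The motif occurred on either strand within 50 bp of 0 of the 112 bound summits (up to 3.24%), of 80 of the 3050 other candidates, or 2.62%, and in 7.38% of all 101 bp stretches of the clusters laid end to end.

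Of the 10 bound places nearest to a piRNA 5′ end, 6 also lay in the window of another kind of gene. The strongest of the 10 ranked 17 by signal among all bound places of the clusters. The DNA fragments were 200 to 800 bp long and the median bound peak of the clusters was 324 bp wide, so short distances here are not exact to the base. The nearest, with its summit at 5964038, lay 13 bp inside 21ur-10061 and in the window of the non-coding RNA gene B0350.81, with a signal value of 108 in the pooled list, 53.6 in replicate 1 and 63.7 in replicate 2. The signal value is the authors' own number for the strength of a peak, on a scale not given in the sources used here, and each replicate's value is that of its own ranked peak nearest to the summit. The next, at 13601722, lay 83 bp downstream of the 5′ end of 21ur-3398 and within 100 bp of the snRNA gene smy-10, with a signal of 96.9 (55.8 and 42.7). Neither replicate's own thresholded list held either place, so no bound place within 100 bp of a piRNA 5′ end was listed in both replicates. The strongest of the 10, at 15530755, had a signal of 330.1 (138 and 191) at 132 bp from 21ur-11151, and it lay in sequence that the genome holds more than once, as described further on. The place at 5967217, 128 bp from 21ur-5229, and that at 16382482, 201 bp from 21ur-3939, lay at tRNA genes. Those at 14474540, 5265000, 14875382, 16383420 and 13907497 had signals of 91.2, 109, 115, 109.9 and 108.

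Protein-coding 5′ ends took a larger share. Of the bound summits 49, or 43.8% (34.4% to 53.4%), lay in the 5′ end window of a protein-coding gene, against 18.5% (17.1% to 19.9%) of the cluster candidates that were not bound and 16.6% of the bases. The bound places of the rest of chromosome IV had 42.7% there (37.2% to 48.4%). Of the 941 protein-coding genes of the clusters, 51 had a bound summit in the window, or 5.42% (4.06% to 7.06%), against 6.58% on the rest of chromosome IV and 6.11% over all protein-coding genes. Over all distances, 58 bound summits lay upstream and 54 downstream of the nearest protein-coding 5′ end. Of those within 500 bp, 33 were upstream and 9 downstream, whereas for other candidates these counts were 197 and 320. Of the bound summits 71, or 63.4% (53.8% to 72.3%), lay outside protein-coding genes, against 33.0% (31.4% to 34.8%) of the other candidates and 50.6% of the bases. On the rest of chromosome IV 46.8% of bound summits (41.2% to 52.5%) and 34.5% of the bases lay outside them.

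The 4 highest signals of the clusters were at such 5′ ends. The place beside dld-1, which encodes a dihydrolipoamide dehydrogenase, reached 1498 (773 in replicate 1 and 709 in replicate 2) with its summit at 14464268, which also lay in the windows of the ncRNA gene LLC1.120 and of 2 piRNA genes. That beside nyn-1, a gene named for the NYN domain, reached 1478 (727 and 749.5) at 13687246, 231 bp upstream of the 5′ end. H35B03.2 had 1074 (475 and 589) at 5731802, and exos-2, which encodes a subunit of the RNA exosome, had 889.5 (447 and 424) at 6415350, each 128 bp upstream. All 4 stood far above the third quartile of the 112 bound places, 189, and both replicates listed each of them. Next among the protein-coding 5′ ends came mrps-7, for a protein of the mitochondrial small ribosomal subunit, with 552 (299 and 252), and rpl-18, for a protein of the cytosolic large subunit, with 511 (276 and 234). The place with 488 (248 and 251) lay between rpl-20, another gene of the large ribosomal subunit, and Y17G9B.5. Further ones lay beside perm-5 at 459 (231 and 229), beside fcd-2, which encodes the worm counterpart of the Fanconi anaemia protein FANCD2, at 451 (243 and 195), and beside csn-5, a subunit of the COP9 signalosome, at 351 (176 and 172). The one beside sqd-1, for an RNA-binding protein, had 276 (140 and 140). The summits of exos-2 and csn-5 also lay in the window of 1 piRNA gene each. That of csn-5 lay in the windows of the pseudogene B0547.5 and the ncRNA gene B0547.34 as well. The mrps-7 summit was also in the window of Y57G11C.3 and the perm-5 summit in that of C55C3.73. None of these signals can be given to 1 gene. All these summits lay 103 to 331 bp upstream of the nearest protein-coding 5′ end.

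Several of these strongest stretches held the same letters, which the naming of the clusters did not use. The 9-letter word CGACNCTCC, in which N is any base, was noticed by reading the stretches around the strongest places of the clusters, so its count there describes how it was chosen. On either strand it occurred within 50 bp of 8 of the 112 bound summits, and all 8 lay at protein-coding 5′ ends and were listed in both replicates. The stretches are printed on the strand of the word with 20 bases on each side and the word in capitals.
dld-1 (chrIV:14464235-14464283, minus strand): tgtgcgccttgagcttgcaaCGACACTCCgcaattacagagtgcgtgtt
nyn-1 (chrIV:13687189-13687237, plus strand): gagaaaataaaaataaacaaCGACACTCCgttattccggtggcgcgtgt
H35B03.2 (chrIV:5731741-5731789, plus strand): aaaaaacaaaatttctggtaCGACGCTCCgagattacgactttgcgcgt
exos-2 (chrIV:6415364-6415412, minus strand): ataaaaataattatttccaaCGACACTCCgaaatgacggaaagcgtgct
rpl-18 (chrIV:13777656-13777704, plus strand): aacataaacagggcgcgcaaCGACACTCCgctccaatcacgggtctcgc
perm-5 (chrIV:5703596-5703644, plus strand): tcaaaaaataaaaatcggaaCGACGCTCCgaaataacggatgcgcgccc
fcd-2 (chrIV:15025595-15025643, minus strand): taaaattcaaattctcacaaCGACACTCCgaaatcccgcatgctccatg
csn-5 (chrIV:5649292-5649340, minus strand): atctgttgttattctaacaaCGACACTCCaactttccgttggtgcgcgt
Of the 40 flanking positions, 5 had the same base in at least 7 of the 8 stretches, 2 of them directly before the word, and no number to compare this with was computed. Among the cluster candidates that were not bound, 6 of 3050 had the word, or 0.197% (0.0722% to 0.428%), and so had 0.0912% of all 101 bp stretches of the clusters laid end to end.

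Outside the clusters the shares were of like size. On the rest of chromosome IV, 23 of 316 bound summits had it, or 7.28% (4.67% to 10.7%), against 16 of 10573 other candidates, or 0.151%. On the other chromosomes 88 of 1786 bound summits had it, or 4.93% (3.97% to 6.04%), against 0.161% of other candidates, and 0.115% of all 101 bp stretches held it. The word went with strength: it was at 15 of the strongest 32 bound places of the rest of chromosome IV, which are 10% of them, and at 8 of the other 284. On the other chromosomes it was at 55 of 179, or 30.7% (24.1% to 38.0%), and at 33 of 1607, or 2.05% (1.42% to 2.87%). The median signal of bound places there was 417 with the word and 130.3 without it. The word lay at a median of 16 bp from the summit in the 111 bound places outside the clusters and 35 bp in the 8 within them. A match is a run of letters and does not show that a protein binds it.

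**Figure D4:**
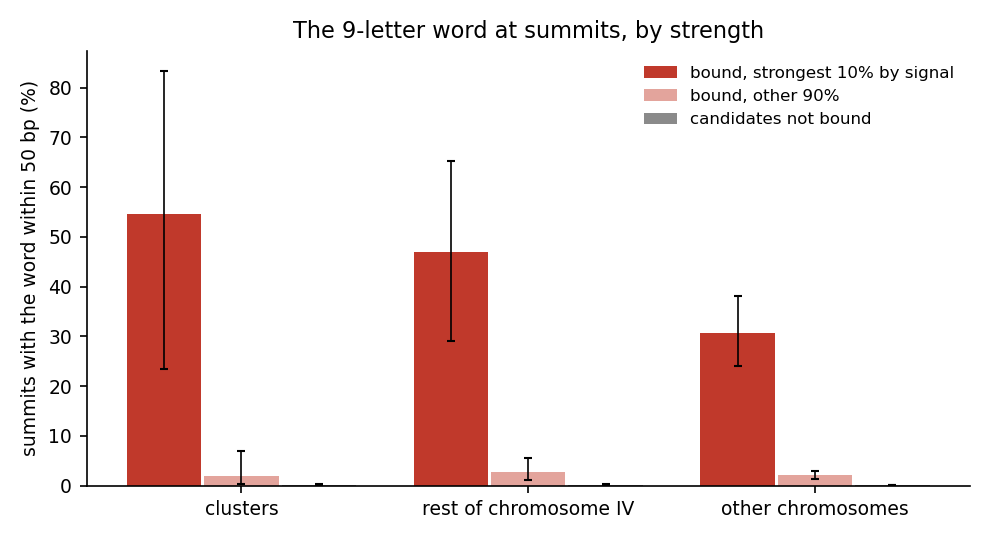
Share of summits, in percent, with the 9-letter word within 50 bp, for the strongest 10% of bound places by signal, the other 90%, and candidates that were not bound, in the clusters, the rest of chromosome IV and the other chromosomes; bars are exact 95% intervals. The word was chosen from the clusters; on the other chromosomes it was at 30.7% of the strongest bound places and at 2.05% of the rest.

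Transfer RNA genes made a group of their own among the bound places. Of the 112 bound summits 16, or 14.3% (8.39% to 22.2%), lay within 100 bp of a tRNA gene, against 7 of the 3050 other candidates, or 0.230%, and 0.180% of the bases. On the rest of chromosome IV 19 of 316 bound summits did, or 6.01% (3.66% to 9.23%), so the intervals of the 2 regions overlap slightly. There 0.0730% of the bases lay that near, and tRNA genes were sparser, at 2.66 per Mb against 6.61 per Mb in the clusters. Of the 41 annotated tRNA genes of the clusters, 18 had a bound summit in the 5′ end window, or 43.9% (28.5% to 60.3%), against 20 of 30 on the rest of chromosome IV, or 66.7% (47.2% to 82.7%), and 56.2% over all tRNA genes. The summits lay within or beside the gene, at a median of 21.5 bp downstream of its 5′ end. The strongest was at B0350.t1 for tRNA-Lys with a signal of 233 (136 and 91.9), followed by C09B9.t1 for tRNA-Lys with 190.0 (74.1 and 110) and C43G2.t1 for tRNA-Leu with 189 (88.5 and 105). Signals at tRNA genes ran from 105 to 233 with a median of 136, so none of them reached the strongest protein-coding places. Only 5 of the 16 were listed in both replicates, against 29 of the 42 places classed at protein-coding 5′ ends.

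The stretches at 2 tRNA genes are shown on the plus strand from 50 bp before to 50 bp after the summit, with the annotated gene in capitals.
B0350.t1, tRNA-Lys (chrIV:5967167-5967267, plus strand): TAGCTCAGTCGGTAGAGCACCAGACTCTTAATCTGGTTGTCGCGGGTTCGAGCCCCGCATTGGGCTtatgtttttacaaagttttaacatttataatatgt
Y65A5A.t2, tRNA-Ala (chrIV:16399172-16399272, plus strand): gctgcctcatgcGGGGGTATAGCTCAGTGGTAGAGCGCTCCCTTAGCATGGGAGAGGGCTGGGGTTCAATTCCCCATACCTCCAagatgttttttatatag
Inside tRNA genes RNA polymerase III initiation relies on internal elements called the A box and the B box. The letters GTTCGANNC, the core of a common form of the B box, were found on either strand within 50 bp of 9 of the 16 summits at tRNA genes and of 2 other bound summits of the clusters. Those lay at 14875382, with no annotated tRNA gene in reach, and at 16383420, in the window of the tRNA gene Y7A9D.t3. Taken over all bound summits, the letters were at 9.82% in the clusters (5.01% to 16.9%) and at 7.91% on the rest of chromosome IV (5.19% to 11.5%). On the other chromosomes the share was 8.68% (7.41% to 10.1%), so it was of like size everywhere. The letters were found at 37 of the 3050 other candidates of the clusters, or 1.21% (0.856% to 1.67%), and in 0.523% of all 101 bp stretches of the clusters. This core is less specific than the longer B box. Of the 41 tRNA genes 35 had at least 1 exact copy among the annotated tRNA genes, and B0350.t1 had 25 identical copies counting itself. How the authors treated reads that fit several places is not given in the sources used here, so signals at such genes may mix copies.

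Other small RNA genes were few in the clusters. A bound summit lay in the window of 4 of 16 snRNA genes, or 25% (7.27% to 52.4%), and of 5 of 18 snoRNA genes, or 27.8% (9.69% to 53.5%). On the rest of chromosome IV these counts were 7 of 25, or 28%, and 18 of 41, or 43.9%. Within 100 bp of such a gene lay 7 bound summits of the clusters, or 6.25% (2.55% to 12.5%), against 5 of the other candidates, or 0.164%. The share of bound summits was 6.01% (3.66% to 9.23%) on the rest of chromosome IV. The strongest of the 7, at 6117945, had a signal of 379 (147 and 224). It lay at the snoRNA gene M03D4.78 and 270 bp upstream of zen-4, which encodes a kinesin of the central spindle, so the signal cannot be given to either gene alone. The snRNA gene with the strongest place was Y57G11C.35, with 171 (80.8 and 92.2). None of the 19 miRNA genes of the clusters had a bound summit in the window (0 of 19, which allows up to 17.6%), and 2 of 31 had one on the rest of chromosome IV.

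A part of the bound places lay in repeated sequence. Each 101 bp stretch around a summit was cut into overlapping stretches of 25 bases, and each was counted in the whole genome on both strands. For 23 of the 112 bound places, or 20.5% (13.5% to 29.2%), the median stretch had a second copy, against 12.6% (11.4% to 13.8%) of other candidates, and 14 bound places, or 12.5% (7.01% to 20.1%), had a median of 10 or more copies, against 3.97% (3.30% to 4.72%). Of these 23, 10 were among the 16 places at tRNA genes, or 62.5% (35.4% to 84.8%). Places classed at protein-coding 5′ ends gave 2 of 42, or 4.76%, and those at snRNA or snoRNA genes 1 of 7, or 14.3%. Those at piRNA 5′ ends alone gave 2 of 17, or 11.8%, and those in no class 8 of 30, or 26.7% (12.3% to 45.9%). The higher share of bound places was thus largely that of tRNA genes. Bound places also shared sequence among themselves, since 11 pairs of them, made of 16 places, had at least 1 stretch of 25 bases in common.

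The 6 strongest of the 23 were not at tRNA genes. The places at 15059353 and 15896075, 836722 bp apart, had signals of 367 (195 and 189) and 307 (133 and 178), and each held a stretch of 25 bases that stood 510 times in the genome. Shown from 50 bp before to 50 bp after each summit on the plus strand, all letters in lower case, they read:
summit at 15059353 (chrIV:15059303-15059403, plus strand): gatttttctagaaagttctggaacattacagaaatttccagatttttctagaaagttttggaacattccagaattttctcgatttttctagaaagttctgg
summit at 15896075 (chrIV:15896025-15896125, plus strand): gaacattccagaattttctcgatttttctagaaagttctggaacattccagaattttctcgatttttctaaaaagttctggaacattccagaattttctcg
The places at 16845604 and 15530755, 1314849 bp apart, had signals of 377 (160 and 214) and 330.1 (138 and 191), and also shared a stretch of 25 bases, with both strands counted. In each of these the most frequent stretch stood 9 times in the genome, and the plus strand reads:
summit at 16845604 (chrIV:16845554-16845654, plus strand): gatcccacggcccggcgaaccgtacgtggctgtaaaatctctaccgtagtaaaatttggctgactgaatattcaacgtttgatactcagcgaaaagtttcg
summit at 15530755 (chrIV:15530705-15530805, plus strand): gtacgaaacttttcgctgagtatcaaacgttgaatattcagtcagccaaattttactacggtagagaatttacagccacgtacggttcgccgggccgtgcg
The places at 4725605 and 4728030 in the left cluster, with 571 (230 and 347) and 538 (242 and 298), lay in the windows of the ncRNA gene K08F11.7 and the pseudogene K08F11.6, and up to 7 and 8 copies of 1 of their stretches were found. These 6 places had no annotated protein-coding 5′ end window around the summit, and their signals were among the 18 highest of the clusters. In shared repeats a signal cannot be assigned to 1 copy.

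A total of 30 bound places fell in none of the classes, that is, within 100 bp of no tRNA, snRNA or snoRNA gene and in the window of neither a protein-coding nor a piRNA gene. They made up 26.8% of the bound places (18.9% to 36.0%), against 52.9% of the other candidates, and their median signal was 123. The strongest, at 5666819, had 779 (433 and 372), in the window of the ncRNA gene T19E7.25 and 2394 bp upstream of bec-1, which encodes the worm counterpart of the autophagy protein Beclin. The 17 places in a piRNA window that fell in none of the tRNA, snRNA or snoRNA, and protein-coding classes had a median of 109.9 and a range from 79.7 to 330.1, and the 42 at protein-coding 5′ ends a median of 158. Some of the 17 also lay in the window of a pseudogene, an ncRNA gene, a snoRNA gene or a tRNA gene. The place farthest from a protein-coding 5′ end, 14573 bp downstream of that of cpg-20, was at 6061655 with 79.7 (43.2 and 50.9), 299 bp from 21ur-10010. The next was the tRNA gene Y51H4A.t4, 10303 bp from the 5′ end of Y51H4A.941.

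The strongest places were listed in both replicates, while many of the other bound places were not. Listing rests on a threshold within each replicate, so a weaker place can miss it even where both signals are alike. Agreement of the signals by strength was not measured. Of the 112 bound places 53, or 47.3% (37.8% to 57.0%), overlapped a peak in both replicates' own thresholded lists, 18 in that of replicate 1 only, 11 in that of replicate 2 only and 30 in neither. On the rest of chromosome IV 128 of 316, or 40.5%, were in both. A candidate peak of any rank was present in each replicate at 110 of the 112. The weakest pooled signals, 2.19 at 6324053 and 5.81 at 15529240, belonged to peaks that overlap a stronger one, so their replicate values may be those of the neighbour. Over these 110 the signals had a Spearman rho of 0.615, and replicate 1 had the higher value at 47. The points share the pooled choice of places, so this is a description. Taken from the other side, 51 of the 81 cluster places of replicate 1, or 63.0%, overlapped one of replicate 2, and 54 of the 70 of replicate 2, or 77.1%, overlapped one of replicate 1.

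**Figure D5:**
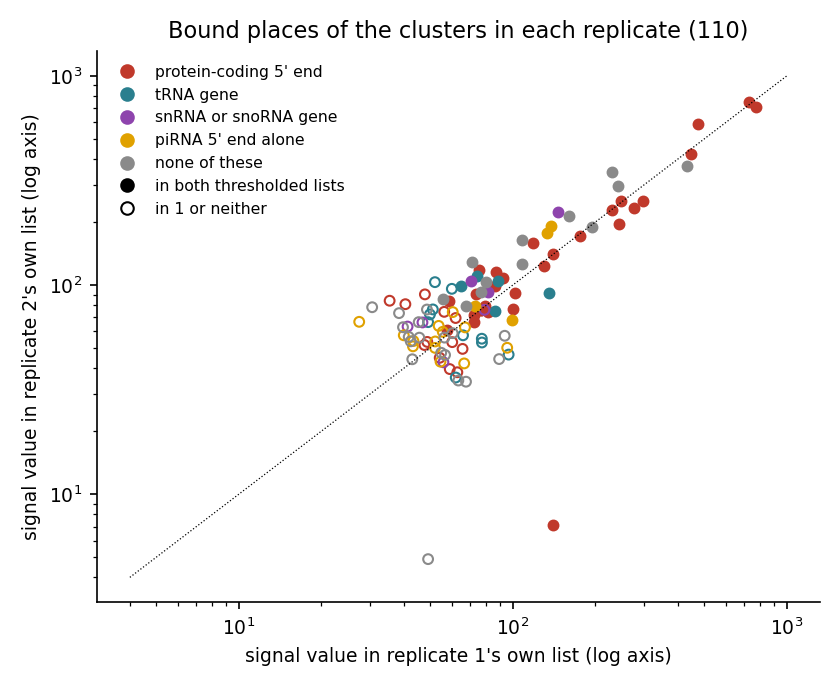
Signal value of 110 bound places of the clusters in replicate 1's own ranked list (x) and in replicate 2's (y), both on log axes, coloured by the class of the place; filled points were in both thresholded lists and the dotted line marks equal values. Each value is that of the overlapping replicate peak whose summit is nearest. Places at protein-coding 5′ ends had the highest values, up to 773 and 749.5, and some places in none of the classes were among the next highest, such as that at 5666819 with 433 and 372.

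The threshold passed through a continuous range of values. The lowest score in the thresholded list was 830, on the authors' scale up to 1000. Scores are given here from another pooled ranked list of the authors, which holds all 2228 thresholded peaks with the same score. In it, the 5 bound places just past the threshold had scores of 837 to 860 and signals of 98.3, 91.2, 106, 88.2 and 122, the last beside tsr-2. The 5 peaks just short of it had scores of 815 to 829 and signals of 98.2, 107, 106, 93.8 and 84.6. In the ranked list that defines the candidates the same places scored 332 to 1000 and 407 to 936, so in that list the score did not separate them. A further 5 peaks of the thresholded list lay in the clusters but not in the ranked list that defines the candidates, with signals of 46.2 to 183, and their summits lay 136 to 1170 bp from a piRNA 5′ end, so none of them was within 100 bp. Those at 14225104 (136 bp) and 15729806 (183 bp) were nearer than the last of the 10 places described above. The first lay at the tRNA gene F02H6.t1, which is counted here as not bound.

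Among genes known for making or using piRNAs, wherever they lie, 27 were listed and 25 matched in the annotation. Of these 5 had a bound summit in the window, or 20% (6.83% to 40.7%), against 6.11% of all protein-coding genes, and none of the 5 lay in the clusters. The list was chosen with earlier results of these data known, so these shares are a description and no sign of enrichment. The gene of TOFU-5, which acts at piRNA promoters, had a signal of 509.5 (260.0 and 257), and attf-6, taken into the list with it, had 147 (60.6 and 82.9). The tofu-5 summit also lay in the window of nuo-6. Among the genes of precursor processing, tofu-2 had 551 (316 and 254), tofu-6 had 140.2 (57.3 and 80.6) and tofu-1 had 111 (53.7 and 56.3). Those of tofu-2 and tofu-1 were shared with spig-1 and ruvb-1. The Argonaute gene prg-1 had candidates in its window with a highest signal of 76.5 and was not bound, and snpc-4 had no candidate there. Within the clusters, 3 bound places at genes outside this list were chosen for mention after their values were seen. The summit with 161 (81.3 and 74.4) lay 169 bp upstream of gtsf-1, a small RNA pathway factor. That with 199 (75.3 and 118) lay 131 bp upstream of tebp-2, whose product binds telomeres. That with 142 (47.7 and 90.2) lay in the windows of puf-7 and of snpc-3.1, a subunit gene of the small nuclear RNA activating complex. This last place was not in replicate 1's own thresholded list. Its 25-base stretches had a median of 2 copies in the genome, so its signal may mix copies.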

How the data were processed

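ChIP-seq of tagged Y48G9A.11 was deposited as ranked and thresholded peak lists, per replicate and pooled, on build ce11 per the labels. The sources used here name no aligner or peak caller, and the files hold no read counts, so depth is unknown. Each peak has a score up to 1000, a signal value and a −log10 IDR value made by the authors. The IDR is the irreproducible discovery rate, which compares peak ranks between lists of peaks. A bound place need not be in the replicates' own thresholded lists, and 30 of the 112 in the clusters were in neither.

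Candidates were the peaks of a pooled ranked list, and bound ones those with the same peak in the pooled thresholded list. That list holds 2228 peaks, of which 2214 were in the ranked list used and all 2228 in another pooled ranked list of 93610 peaks. As a result, 18 bound members had a score under 830 in the ranked list used, and 27 members at or over 830 were not bound. Each replicate's place was counted as listed where its own thresholded list had a peak overlapping by at least 1 bp.

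Genes came from RefSeq and Ensembl release 115 annotation of WBcel235, and sequences from the RefSeq genome. A gene's 5′ end window covers 1000 bp before its annotated 5′ end and 200 bp after it. Classes were assigned in the order tRNA, snRNA or snoRNA, protein-coding, piRNA, none. Words were searched on both strands within 50 bp of a summit; a longer form of the B box, searched first, matched fewer candidates that were not bound and is not reported. The places named are the 10 strongest in each cluster, the 10 nearest to a piRNA 5′ end, the 10 farthest from a protein-coding 5′ end and the strongest at each kind of gene, plus a few named as chosen later. The members, lists and words were chosen with earlier results of these data known. Shares have exact 95% Clopper-Pearson intervals. Python 3.11.15, numpy 2.4.6, scipy 1.17.1 and matplotlib 3.10.9 were used, and the counting steps were tested on simulated data.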

Additional observations from a re-analysis of the deposited data

How the results depend on the processing

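In all, 9 results were recomputed, giving 93 values under alternatives, of which 64 moved less than their interval or stayed within 1.5 times the main count. With peaks of the stronger 50% by signal alone, 1.87% of cluster candidates and 1.40% of those on the rest of chromosome IV were bound, 59 cluster places were left with a median signal of 187.9, none (0%) lay within 100 bp of a piRNA 5′ end and 0.317% of piRNA genes had a bound summit. Without peaks that overlap a stronger one, the bound shares were 4.32% and 3.46%. Against all of the genome outside the clusters the share was 2.33% and the ratio 1.52. The interval of the ratio excluded 1 there, with the conservative list (1.33, 1.07 to 1.63), with the other pooled ranked list (1.25, 1.02 to 1.54), without overlapping peaks (1.25, 1.01 to 1.55) and in replicate 1 alone (1.36, 1.05 to 1.76), and included it for the main lists and the other alternatives with an interval. Counted per Mb, there were 18.1 bound places in the clusters and the ratio to the rest of chromosome IV was 0.646, so the direction of that comparison depends on the denominator; the cause was not tested. Windows of 500 bp and 2000 bp upstream took 13.4% and 39.3% of bound summits at piRNA genes, and 0.225% and 1.41% of piRNA genes. A distance of 200 bp from piRNA 5′ ends, which was chosen after seeing the data, took in 8.04% of bound summits.

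Leaving out each replicate meant using the other's own lists, whose signals are on their own scale. The cluster share was then 2.11% to 2.50%, that on the rest of chromosome IV 1.62% to 1.84%, the ratio 1.303 to 1.36 and the number of places 70 to 81. Their median signal was 80.8 to 94.0, the share at protein-coding 5′ ends 49.4% to 54.3%, that within 100 bp of a piRNA 5′ end 0% to 0%, and the share of piRNA genes 0.317% to 0.338%. No paired analysis was possible because there is only 1 group of samples, so replicate numbers pair nothing across groups; the shares of both regions in each replicate stand side by side above. Without read counts, how depth limits the number of peaks is not known.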
